A study of Oryza sativa and Arabidopsis thaliana with 24 samples.

Results

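The fragments described here are 3′ fragments of plant tRNAs that carry 1 base differing from every listed tRNA, always at the same place, base 19 counted from the 3′ end of the mature tRNA with its CCA tail. They were found by aligning each listed 3′ fragment (the authors' type tRF-3 and their longer type that starts in the anticodon loop) without gaps to the 3′ ends of the listed tRNA sequences, complete or lacking the last A. A fragment was kept when it was no exact part of any listed tRNA and differed at base 19 alone. In all, 1955 of 8620 listed fragments met this rule, 1331 of 5826 in Arabidopsis thaliana and 624 of 2794 in Oryza sativa. The libraries were tRNA-seq, small RNA libraries from total RNA treated beforehand with a tRF and tiRNA pretreatment kit, with 2 libraries in each of 12 groups. The labels give no genotype, ecotype, cultivar or plant age. Untreated Arabidopsis plants grown in soil at 23 °C gave rosette leaf, stem leaf, stem, flower and silique. Rice seedlings in nutrient solution at 28 °C gave shoot and root as control, after cold (4 °C for 8 h under continuous light) or after salt (300 mM NaCl for 8 h), and untreated rice gave panicle. Nothing in the labels says that the 2 libraries of a group came from separate plants, so p-values measure the spread between these libraries, which may be technical.

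Base 19 from the 3′ end is position 58 of the standard tRNA numbering and lies in the T loop, the loop on the 3′ side of the folded tRNA. In most cytosolic tRNAs of eukaryotes this adenosine carries a methyl group on its Watson-Crick face, which reverse transcriptase copies poorly or with a wrong base. Kits of the kind used here remove end groups and such methyl groups before cDNA synthesis, and how completely they did so in these libraries was not measured. tRNA fragments are known in plants as products of cleavage in the anticodon loop (the longer ones) and in the other loops (shorter tRFs). "Misread" is used below only for a base that differs from the listed tRNA; the modification itself was not measured.

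The most abundant fragments with both forms listed, from 3 parent families in each species, are shown to make the difference visible. The capital marks base 19. The first line of each group is the form that matches the tRNA, called the adenine form, and the lines after it are misread forms. Not every listed misread form is printed. Families are named by the amino acid and the anticodon.
Arabidopsis Gly-TCC, adenine: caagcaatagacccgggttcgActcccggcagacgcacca
Arabidopsis Gly-TCC, guanine: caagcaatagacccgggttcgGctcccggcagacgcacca
Arabidopsis Gly-TCC, thymine: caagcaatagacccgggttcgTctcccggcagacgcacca
Arabidopsis Gly-TCC, cytosine: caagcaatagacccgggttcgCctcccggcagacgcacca
Arabidopsis Tyr-GTA, adenine: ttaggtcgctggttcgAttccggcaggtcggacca
Arabidopsis Tyr-GTA, thymine: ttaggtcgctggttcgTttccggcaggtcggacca
Arabidopsis Tyr-GTA, guanine: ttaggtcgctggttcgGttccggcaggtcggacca
Arabidopsis Glu-TTC, adenine: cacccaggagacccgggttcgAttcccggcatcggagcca
Arabidopsis Glu-TTC, thymine: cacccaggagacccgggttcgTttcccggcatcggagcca
rice Glu-CTC, adenine: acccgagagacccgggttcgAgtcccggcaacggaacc
rice Glu-CTC, thymine: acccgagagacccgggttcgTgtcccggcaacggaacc
rice Glu-CTC, guanine: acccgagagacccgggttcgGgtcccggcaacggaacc
rice Val-AAC, adenine: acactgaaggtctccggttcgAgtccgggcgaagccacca
rice Val-AAC, guanine: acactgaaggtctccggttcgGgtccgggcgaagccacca
rice Val-AAC, thymine: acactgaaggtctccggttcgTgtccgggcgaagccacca
rice Lys-CTT and Lys-TTT, adenine: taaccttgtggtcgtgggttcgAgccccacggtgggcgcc
rice Lys-CTT and Lys-TTT, guanine: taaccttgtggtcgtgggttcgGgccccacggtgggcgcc
rice Lys-CTT and Lys-TTT, thymine: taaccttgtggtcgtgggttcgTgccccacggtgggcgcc

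In Arabidopsis the Gly-TCC fragment of 40 nt averaged 508 RPM (reads scaled to library size) over the 10 libraries as the adenine form, 1449.5 RPM with guanine, 563 RPM with thymine and 21.9 RPM with cytosine. The Tyr-GTA fragment of 35 nt averaged 84.8 RPM with adenine, 1760.2 RPM with thymine, 212 RPM with guanine and 6.81 RPM with cytosine. The Glu-TTC fragment of 40 nt averaged 107 RPM with adenine, 1159.9 RPM with thymine, 98.4 RPM with guanine and 3.06 RPM with cytosine. The misread forms together thus outnumbered the adenine form in all 3, and the leading wrong base differed between them. In rice the Glu-CTC fragment of 38 nt, which lacks the last A, averaged 126 RPM with adenine, 181 RPM with thymine and 151 RPM with guanine over 14 libraries. The Val-AAC fragment of 40 nt averaged 88.6 RPM with adenine, 116 RPM with guanine and 87.3 RPM with thymine. The 3 Arabidopsis parents come from 12 gene loci for Gly-TCC, 15 for Tyr-GTA and 6 for Glu-TTC on the nuclear chromosomes. One Gly-TCC gene, AT1G08240, lies on chromosome 1 from 2588525 to 2588596 on the plus strand of TAIR10, a Tyr-GTA gene with an intron, AT1G49460, on chromosome 1 from 18308903 to 18308987, and a Glu-TTC gene, AT1G09110, on chromosome 1 from 2939417 to 2939488. All are annotated as tRNA genes, and the misread base lies in the mature tRNA. The rice fragments have 21 parent loci for Glu-CTC, 5 for Val-AAC and 17 for the Lys fragment, which Lys-CTT and Lys-TTT tRNAs share.

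The mismatch was concentrated at this base. Of 1402 Arabidopsis 3′ fragments with exactly 1 mismatch to a tRNA 3′ end, 1331 (94.9%) had it at base 19, and so did 624 of 657 in rice (94.98%). The next most frequent positions were base 30, with 26 Arabidopsis fragments and 7 rice fragments, and base 38, with 9 and 10. A further 1363 Arabidopsis and 1038 rice 3′ fragments were exact, and 81 and 27 were neither. All 232 Arabidopsis tRNA sequences have A at base 19, as do 288 of the 299 rice sequences; the remaining 11 have C in 5, T in 4 and G in 2. For 32 misread rice fragments, of Gly-GCC and Ile-AAT, a gene copy with T there is also a possible parent. Thymine reads of these families match that copy exactly and were not counted as misread.

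**Figure D1:**
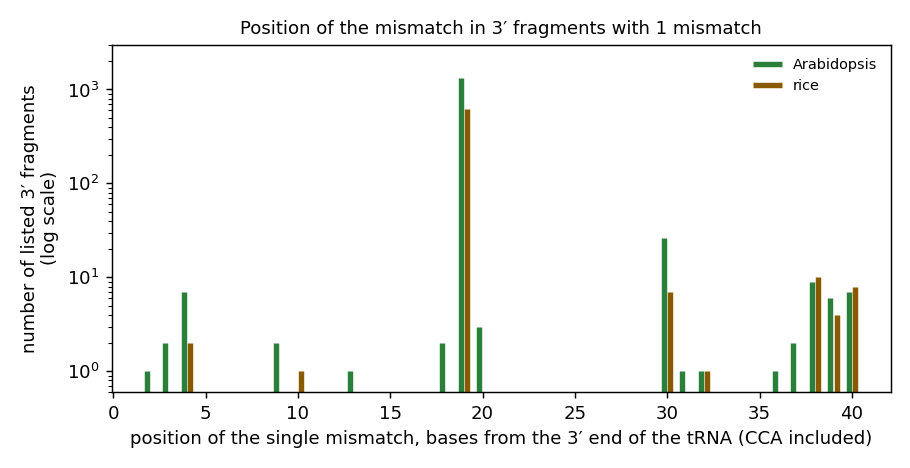
Number of listed 3′ fragments (log axis) against the position of their single mismatch, in bases from the 3′ end of the tRNA, for Arabidopsis (green) and rice (brown). Base 19 holds 1331 and 624 fragments, and no other position holds more than 26.

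Every misread fragment came from a nuclear tRNA. Among exact fragments that reach base 19, Arabidopsis listed 519 from plastid tRNAs, 61 from mitochondrial tRNAs and 68 from tRNAs shared by both organelles, together with 541 from nuclear tRNAs. The plastid ones averaged 26183 RPM in sum, above the 6859 RPM of the nuclear exact fragments, and the mitochondrial ones 630 RPM. In either species 0 misread fragments had an organelle parent. The part of depth in this was not tested. The misread fragments spread over 47 Arabidopsis and 42 rice parent families, counting a family that cannot be told from another as a family of its own. The 2 species shared 159 misread sequences. In Arabidopsis, 32 misread sequences were an exact part of a rice tRNA, and 0 the other way round.

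The wrong base was mostly thymine or guanine. In Arabidopsis 785 misread fragments read thymine, 492 guanine and 54 cytosine, and thymine held 72.7% of the misread RPM. In rice 353 read thymine, 258 guanine and 13 cytosine, with 55.7% of the RPM on thymine. The thymine share varied little between groups, from 69.3 ± 0.0943% (SD, n = 2) in stem leaf to 74.96 ± 0.0321% in silique, and from 53.6 ± 0.541% in cold-treated root to 58.4 ± 1.56% in salt-treated shoot. The most abundant fragment read as cytosine was the 40 nt Gly-TCC one in Arabidopsis. In rice it was a 35 nt Leu-CAA fragment, at 3.73 RPM.

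The wrong base went with the neighbouring base on the 3′ side, base 18 of the tRNA. Where that neighbour is thymine, thymine held 92.9% of the misread RPM in Arabidopsis (91.1% to 94.2% over the 10 libraries) and 91.7% in rice (90.0% to 93.4% over the 14 libraries). Where it is cytosine, guanine held 74.7% (72.9% to 77.003%) and 78.8% (76.7% to 83.4%). With a guanine neighbour, guanine held 56.2% and 57.7%, and with an adenine neighbour thymine held 53.6% and 52.3%. Many but not all single families followed this. Thymine made up 99.9% of the misread RPM of Arabidopsis Trp-CCA and 100% of rice Trp-CCA, both with a thymine neighbour, 25.01% and 20.3% of Gly-TCC, with a cytosine neighbour, and 47.3% and 48.5% of Glu-CTC, with a guanine neighbour. Ala-AGC stood apart: with a thymine neighbour, it read thymine in 48.1% and guanine in 49.2% in Arabidopsis, and 49.6% and 47.8% in rice. In Arabidopsis Leu-CAG and Leu-TAG, with an adenine neighbour, read mostly guanine (69.7% and 65.8%). Arg-CCT, with a cytosine neighbour and 21.4 RPM in 6 fragments, read guanine in 16.0% and thymine in 0%. In 5 of the 6 Arg-CCT fragments the wrong base was cytosine. Cytosine was also the wrong base in 5 of 12 Asn-GTT fragments, where thymine held 13.5% and guanine 36.9% of the misread RPM. These are descriptions over the same libraries, and fragments of a family share their parent sequence.

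**Figure D2:**
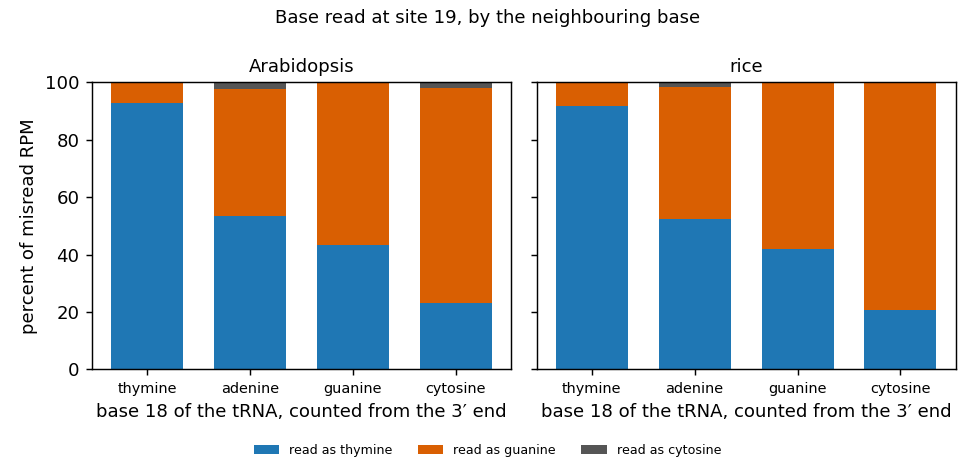
Percent of the misread RPM that reads thymine, guanine or cytosine at base 19, for tRNAs grouped by base 18, in Arabidopsis (left) and rice (right). The bars of the 2 species are alike, with thymine at 92.9% and 91.7% beside a thymine and at 23.2% and 20.8% beside a cytosine.

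Misread fragments fell into short and long classes. In Arabidopsis 146 were 18 to 19 nt long, 394 were 20 to 24 nt, 173 were 25 to 32 nt and 618 were 33 to 40 nt, and the longest class held 57.7% of their RPM. In rice the longest class held 454 fragments and 87.6% of the RPM. In 103 Arabidopsis and 32 rice fragments the wrong base was the very first base of the fragment, among them 24 of the 54 Arabidopsis fragments read as cytosine. In Arabidopsis 1078 ended with CCA and 253 lacked the last A, and in rice 383 and 241. Fragments lacking the last A held 19.2% of the Arabidopsis and 53.2% of the rice misread RPM. How the misread share, defined in the next paragraph, went with length differed between groups (n = 2 each). In Arabidopsis flower it lay between 81.5 ± 0.649% at 20 to 24 nt and 89.4 ± 0.387% at 25 to 32 nt, whereas in rosette leaf it was 84.0 ± 0.255% at 18 to 19 nt and 69.3 ± 1.39% at 25 to 32 nt. In salt-treated rice shoot it was 66.7 ± 4.18% at 18 to 19 nt, 30.3 ± 0.586% at 20 to 24 nt, 37.0 ± 0.572% at 25 to 32 nt and 38.4 ± 1.47% at 33 to 40 nt. In cold-treated shoot it was 54.1 ± 3.57%, 28.5 ± 1.14%, 29.3 ± 1.24% and 41.1 ± 0.0830% in the same order.

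Silique and flower held the most misread fragments in Arabidopsis. Their summed level was 65334 ± 612 RPM in silique and 48299 ± 485 RPM in flower, whereas rosette leaf had 29604 ± 517 RPM, stem leaf 28324 ± 151 RPM and stem 29752 ± 35.1 RPM. In rice control root summed to 12296 ± 241 RPM and control shoot to 5481 ± 11.4 RPM. It was 7557 ± 77.7 RPM in cold-treated and 8166 ± 114 RPM in salt-treated root, 3093 ± 61.1 RPM in cold-treated and 3193 ± 0.939 RPM in salt-treated shoot, and 6941 ± 30.5 RPM in panicle (n = 2 each). The misread share is the misread RPM as a percent of misread plus adenine forms of nuclear tRNAs. Only listed forms enter it. The adenine form was listed for 442 of 918 Arabidopsis and 339 of 431 rice fragments with a misread form. The share was 89.2 ± 0.158% in silique, 87.0 ± 1.02% in stem, 85.9 ± 0.248% in flower, 83.1 ± 0.479% in stem leaf and 78.1 ± 0.407% in rosette leaf. No 2 neighbours in this order overlapped, and stem and flower were the closest, at 86.3% and 87.7% against 85.7% and 86.1%. In rice it was 76.8 ± 0.263% in control shoot, 70.3 ± 0.363% in control root, 64.8 ± 0.423% in cold-treated root, 58.3 ± 0.313% in salt-treated root and 55.4 ± 0.516% in panicle. The share was lowest in shoot after cold, 39.3 ± 0.177%, and after salt, 38.6 ± 0.979%, and these 2 groups overlapped. No test was run on these sums over all families. In bulk samples, fewer cells of a type and less RNA per cell cannot be told apart.

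**Figure D3:**
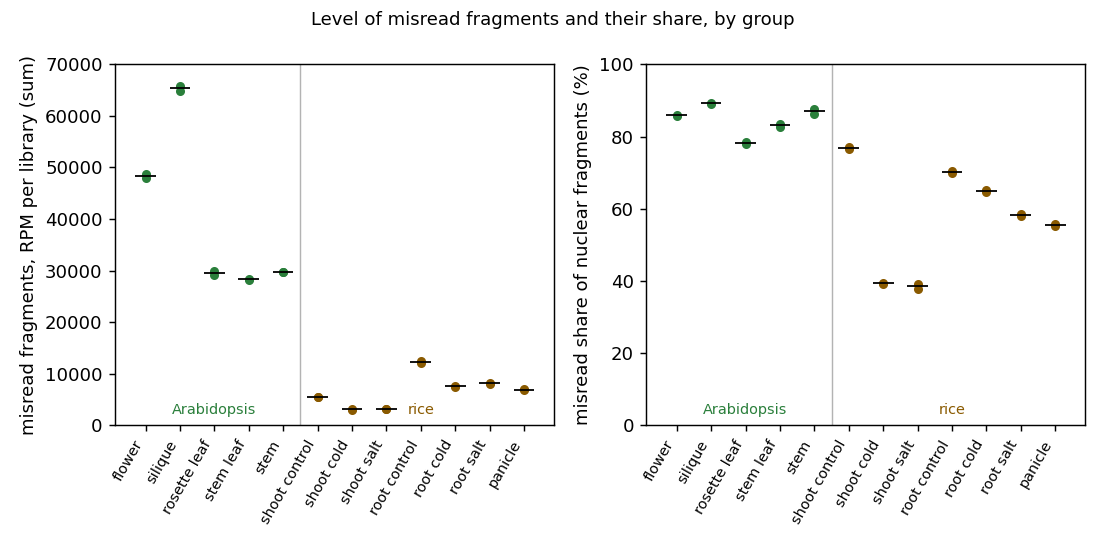
Summed RPM of misread fragments (left) and their share of misread plus adenine forms of nuclear tRNAs (right). Points are single libraries, 2 per group, and bars are means. On the right, rice shoot is at 76.8% in control, 39.3% after cold and 38.6% after salt.

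The families differed widely in how often they were misread. Tyr-GTA, Gly-CCC and Ala-CGC were near the top in Arabidopsis, with 96.4%, 96.3% and 93.4% of their RPM misread over all libraries, and Met-CAT (16.8%), Ile-TAT (25.7%) and Val-TAC (35.6%) near the bottom. In rice Gly-CCC (87.8%) and Ala-CGC (87.0%) were again high, and Met-CAT (1.93%), Thr-CGT (2.61%) and Val-TAC (7.71%) low. Some families differed widely between the species. Tyr-GTA had 96.4% in Arabidopsis and 17.1% in rice. In rice it has A rather than T as the neighbour and 4.89 RPM in 3 misread fragments. Gly-GCC had 93.2% in Arabidopsis and 3.78% to 22.6% over the rice groups, and Gln-TTG 89.2% and 11.6% to 25.3%. For rice Gly-GCC, thymine reads that match a gene copy with T were not counted as misread. The reason for these differences was not tested. In Arabidopsis Tyr-GTA held the most misread signal of all families, 7949 RPM in 65 fragments, followed by Glu-TTC with 4342 RPM in 91. Val-AAC led in rice, with 1602 RPM in 120 fragments, followed by Glu-CTC with 1255 RPM in 52.

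Tissue differences in the share recurred across Arabidopsis families. In 32 families with at least 20 reads of both forms in every library, the share was higher in silique than in rosette leaf in 32, with a median difference of 9.38 percentage points. Against rosette leaf it was higher in stem in 30 families (median 6.04 points), in flower in 27 (5.73 points) and in stem leaf in 24 (4.22 points). These families share their libraries and are not independent. The difference was widest in Val-TAC, at 59.7 ± 0.692% in silique and 6.20 ± 3.71% in rosette leaf. Its misread level in rosette leaf was low, 10.3 and 25.8 RPM, where 1 read was worth 3.43 and 2.15 RPM. The range over the 5 tissues was smallest in Glu-CTC, from 85.5% in flower to 88.2% in stem.

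The misread share of single fragments was tested over the 10 Arabidopsis libraries. For the 40 nt Gly-TCC fragment it was 89.7% and 88.4% in silique, 86.0% and 89.3% in stem, 80.9% and 83.3% in flower, 77.7% and 79.96% in stem leaf and 74.0% and 72.6% in rosette leaf. Silique and stem overlap, and rosette leaf lies below all others. The tissues passed the test with libraries permuted freely (exact permutation test, p = 0.00212, adjusted p = 0.00952 over 6 tests). For the 35 nt Tyr-GTA fragment the means ran from 91.4 ± 2.94% in rosette leaf to 98.2 ± 0.921% in silique (exact permutation test, adjusted p = 0.00952). For the 40 nt Glu-TTC fragment they ran from 89.6 ± 1.18% in stem leaf to 95.5 ± 3.15% in stem and did not pass (exact permutation test, adjusted p = 0.218). Libraries with the same replicate number deviated together, so the test was repeated with the number kept as a block. Neither Gly-TCC nor Tyr-GTA then passed (exact permutation test, p = 0.0167 and adjusted p = 0.05 for each, not under 0.05). With 1 library left out the adjusted p ranged from 0.00952 to 0.0571 for Gly-TCC, over 0.05 without stem leaf replicate 1, and from 0.00952 to 0.267 for Tyr-GTA, which was over 0.05 without any library except rosette leaf replicate 1. Over all fragments of the Glu-TTC family the test passed with libraries permuted freely (exact permutation test, adjusted p = 0.0169). The block was not applied to the whole family. With it, the single Glu-TTC fragment did not pass (exact permutation test, adjusted p = 0.3).

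**Figure D4:**
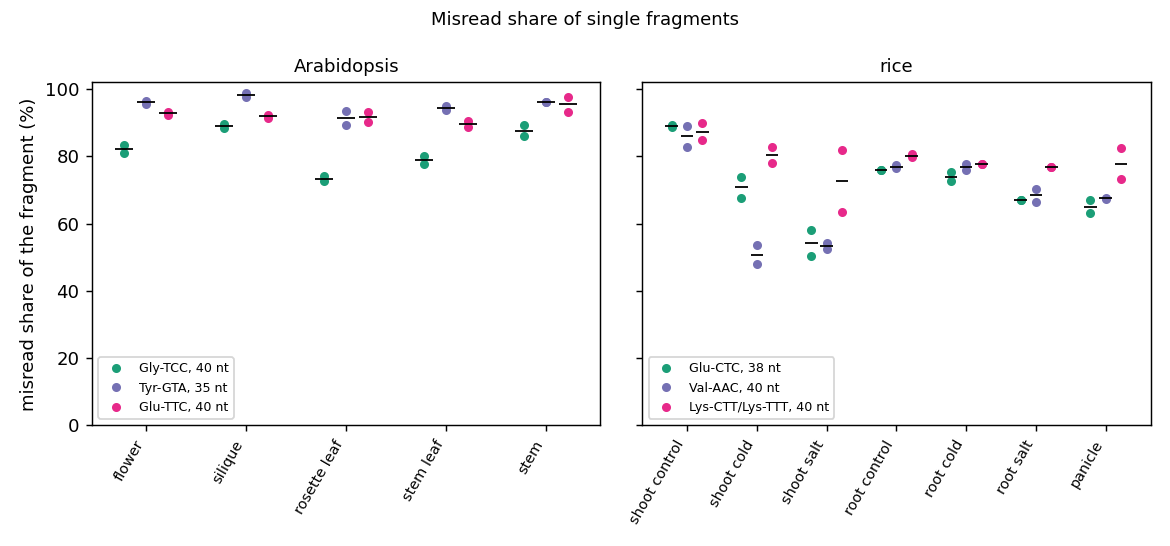
Misread share of 3 fragments in each species, with 1 point per library and a bar at the mean of 2. In Arabidopsis the lowest share is 72.6%, Gly-TCC in rosette leaf. In rice the means of Val-AAC are 85.9% in control shoot, 50.8% after cold and 53.3% after salt.

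Single misread fragments were then compared between Arabidopsis tissues with limma on log2(RPM + 1), fitted on the whole fragment table and called at an adjusted p under 0.05. Among the 5 tissues 461 of 1330 misread features (34.7%) were called, against 33.2% of all listed features. Flower and silique together, against the 3 vegetative tissues, gave 257 higher and 22 lower. Of all features 9.95% were called higher and 8.92% lower, so misread fragments were called higher in 19.3% and lower in 1.65%. Their median log2 fold change was 0.89, beside -0.01 over all features. Their own adenine forms were on the same side, with 60 of 442 higher, 8 lower and a median of 0.50. The other exact 3′ fragments that reach base 19, most of them from organelles, were on the opposite side, with 20 of 746 higher, 126 lower and a median of -0.93. The counts depended on the flower libraries, with 282 and 287 called among the tissues and 132 and 138 in the second comparison without flower replicate 1 and flower replicate 2.

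The most abundant misread fragment in Arabidopsis was the 35 nt Tyr-GTA fragment with thymine, shown above. It had 3756 and 3752 RPM in flower, 1949 and 1959.9 RPM in stem, 1678 and 1516 RPM in stem leaf, then 1129 and 1160.0 RPM in silique, and lastly 380.4 and 322 RPM in rosette leaf. Flower was highest and rosette leaf lowest, and the 5 tissues did not overlap. Flower and silique against the other 3 gave a log2 fold change of 1.01 ± 0.06 (SE, adjusted p = 1.1e-06). Another Tyr-GTA fragment with thymine, 32 nt and lacking the last A, had 5666 and 5247 RPM in silique. It reached at most 960.3 RPM elsewhere, in stem, and 27.4 and 53.7 RPM in rosette leaf. One more, 31 nt and lacking the last A, had 3899 and 3727 RPM in flower and at most 725 RPM in any other library. The last 2, whose 5′ ends lie 1 base apart in the same tRNA, were thus highest in different tissues.

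Gly-TCC went the other way. Its 40 nt fragment with guanine had 74.8 and 107 RPM in silique, but 2011 and 2022 RPM in flower, with 2228 and 2433 RPM for stem leaf, 1662 and 1419 RPM for rosette leaf and 1290.3 and 1248 RPM for stem. Silique was low, and flower lay among the vegetative tissues. The log2 fold change of flower and silique against the other tissues was -1.95 ± 0.10 (adjusted p = 2.4e-07). The 40 nt Gly-CCC fragment with thymine was also lower, with 194 and 193 RPM in silique and 1571 and 1533 RPM in stem leaf, a log2 fold change of -1.54 ± 0.07 (adjusted p = 1.1e-07). A 20 nt Gln-CTG fragment with guanine had the largest fold toward flower and silique among the fragments named here (log2 4.85 ± 0.43, adjusted p = 1.9e-05), with 333 and 300.1 RPM in silique, but flower (52.8 and 26.0 RPM) overlapped stem (46.2 and 63.9 RPM). Among called fragments of at least 10 RPM without such overlap, the largest folds were in fragments of low level. An 18 nt Trp-CCA fragment lacking the last A had 172 and 248 RPM in silique, 18.6 and 23.4 RPM in flower and at most 10.3 RPM elsewhere, a log2 fold change of 4.46 ± 0.93 (adjusted p = 0.0075), a call lost without flower replicate 1 (4.54) and without flower replicate 2 (4.38). A 20 nt Leu-CAA fragment with thymine (log2 fold change 4.10 ± 0.79) and a 36 nt Arg-TCT fragment with thymine (3.96 ± 0.74) were likewise higher. In 1 or more vegetative libraries each of these 3 had no read, so the fold depends on the 1 RPM added before taking the log. A 20 nt Pro-AGG fragment with thymine had 2243 and 2148 RPM in silique and at most 227 RPM elsewhere.

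In rice 506 of 624 misread features (81.1%) differed among the 7 groups, near the 80.3% of all features. Control root against control shoot gave 198 higher and 90 lower, 31.7% and 14.4%, where 21.9% and 27.5% of all features were called. Here the 3′ end separated the fragments. Of 241 misread fragments lacking the last A, 161 were higher in root and 0 lower, with a median log2 fold change of 1.61. Of 383 that end with CCA, 37 were higher and 90 lower, with a median of -0.55. The adenine forms of these fragments were split in the same way: 106 of 132 lacking the last A were higher and 0 lower, and 33 of 207 ending with CCA were higher and 25 lower. Fragments lacking the last A held 70.4 ± 0.384% of the misread RPM of control root, but 31.8 ± 0.376% of that of control shoot, and 69.4 ± 0.0316% and 29.0 ± 1.01% of the adenine forms. With libraries shifted to a common median, which moved the median of all features by 0.40 on the log2 scale, 247 misread features were higher and 44 lower, and of those ending with CCA 59 were higher and 44 lower. Relative to the median of all features, the misread median was 0.51 higher. Without root control replicate 1 and root control replicate 2 the fragments ending with CCA gave 63 and 56 lower.

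The 5 most abundant misread fragments of rice were all long and lacked the last A, and each was higher in root. The 38 nt Gly-CCC fragment with thymine had 443 and 403 RPM in control root, compared with 96.6 and 99.9 RPM in control shoot (log2 fold change 2.10 ± 0.13, adjusted p = 2.6e-10). The 40 nt Glu-CTC fragment with guanine had 575 and 571 RPM in root control libraries and 58.5 and 67.8 RPM in shoot controls (3.17 ± 0.22, adjusted p = 8.6e-10). The 38 nt Glu-CTC fragment with thymine shown above had 497 and 489 RPM and 60.7 and 56.7 RPM (3.05 ± 0.12, adjusted p = 2e-13). The widest folds were in a less abundant 40 nt Glu-CTC fragment with thymine, 29.5 and 31.8 RPM in root against 0.907 and 1.72 RPM in shoot (log2 fold change 3.80 ± 0.45). A 30 nt Val-AAC fragment that ends with CCA and reads guanine was the reverse, at 1.72 and 2.99 RPM in root and 18.1 and 14.6 RPM in shoot (-2.39 ± 0.34, adjusted p = 1.1e-05). A 30 nt Ala-CGC fragment (-2.22 ± 0.41) and a 40 nt Gly-TCC fragment (-2.16 ± 0.38), both ending with CCA, were lower in root too.

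The misread share of single rice fragments did not differ detectably between all 6 root and all 6 shoot libraries. The mean of root minus shoot was 0.928 percentage points for Glu-CTC of 38 nt, 10.8 points for Val-AAC of 40 nt and -1.80 points for the Lys fragment (exact permutation tests, adjusted p = 0.859, 0.273 and 0.805). For Lys this rested on 1 library: without shoot salt replicate 2 the difference was -5.14 points and passed (exact permutation test, adjusted p = 0.0216). In control libraries alone root was lower in all 3, by 13.0 points for Glu-CTC (values of 75.8% and 75.9% against 89.2% and 88.6%), 9.01 for Val-AAC and 7.13 for Lys, where 2 against 2 libraries cannot give p under 0.333. With treatments and replicate numbers kept together as a replicate block, the exact permutation p was 0.812, 0.188 and 0.531.

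Panicle set against untreated seedlings (control shoot and root averaged) gave 139 misread features higher and 118 lower, 22.3% and 18.9%, where 36.2% and 9.06% of all features were called. Again the 3′ end separated them. Of those ending with CCA 139 were higher and 14 lower, and of those lacking the last A 0 were higher and 104 lower. The median of all features was 0.62, and relative to it the misread median was 0.54 lower. With libraries shifted to a common median, which moved that median by -0.65, the misread features gave 48 higher and 207 lower; those ending with CCA then gave 48 higher and 35 lower, and those lacking the last A 0 higher and 172 lower. The total was 138 and 146 without panicle replicate 1 and panicle replicate 2, with 66 and 72 higher and 5 and 5 lower of those ending with CCA, and 67 and 69 lower of those lacking the last A. The largest rises were in 40 nt Lys fragments that end with CCA. With guanine the level was 66.9 and 82.6 RPM in panicle and at most 20.9 RPM in control seedlings (log2 fold change 2.17 ± 0.28, adjusted p = 6.1e-06), and with thymine 64.0 and 69.4 RPM against at most 13.6 RPM (2.59 ± 0.35). The largest falls were in fragments lacking the last A, a 38 nt Ile-AAT fragment with guanine (-3.58 ± 0.67) and 35 nt Leu-CAA fragments. The Leu-CAA fragment with guanine had 2.89 and 4.64 RPM in panicle, 15.0 and 13.7 RPM in control shoot and 116 and 112 RPM in control root (-3.17 ± 0.21, adjusted p = 8.3e-10).

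In rice shoot under cold or salt, most misread features that passed the test were lower, and most adenine forms that passed it were higher. After cold 84 of 624 misread features were lower and 0 higher, beside 5.12% lower and 9.99% higher of all features. Of the 339 adenine forms 111 were higher and 0 lower. The median log2 fold change was -0.54 for misread and 1.02 for adenine forms, with 0.09 over all features. After salt 170 misread features were lower and 8 higher, beside 13.8% and 17.4% of all features. Of the adenine forms 148 were higher and 4 lower, and the medians were -0.69 and 1.07. In sum the adenine forms of nuclear tRNAs had 1653 ± 21.0 RPM in control shoot, 4769.8 ± 129.7 RPM after cold and 5084 ± 208 RPM after salt, while the misread sum went from 5481 to 3093 and 3193 RPM. The share was lower than in control shoot in 32 of 32 families after cold (median -30.7 points) and in 32 of 32 after salt (median -27.2 points), all measured in the same libraries. For all fragments ending with CCA it went from 76.1 ± 0.111% to 31.7 ± 0.717% after cold and 38.3 ± 0.490% after salt. For those lacking the last A it went from 78.4 ± 0.638% to 57.3 ± 0.735% and 39.2 ± 1.94%, a smaller fall after cold. Glu-CTC went from 85.8 ± 0.678% to 63.9 ± 0.937% and 52.7 ± 2.61%, Val-AAC from 78.7 ± 1.21% to 47.9 ± 1.23% and 46.1 ± 0.137%, and Gly-TCC from 81.9 ± 0.540% to 52.5 ± 3.25% and 45.8 ± 1.70%. The 2 control and 2 cold libraries of shoot had like depth, 138101 and 221124 listed reads against 147683 and 237041, and salt had fewer, 67985 and 111564. The part of depth in the salt difference was not tested. The cold count was 46 without shoot control replicate 1 and 146 and 144 without shoot salt replicate 1 and shoot salt replicate 2, and the adenine count 72 without shoot cold replicate 1. The salt count was 108 without shoot control replicate 1. A common median moved all features by -0.16 in cold and -0.14 in salt.

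**Figure D5:**
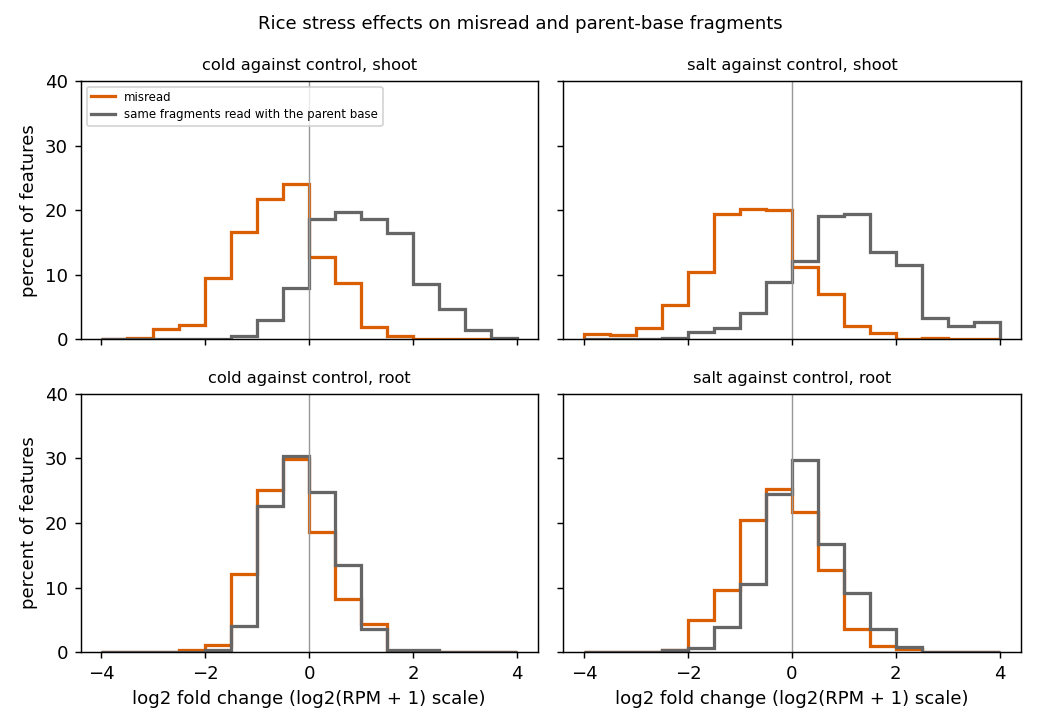
Distribution of log2 fold changes (log2(RPM + 1) scale, bins of 0.5, values beyond 4 placed in the last bin) of misread features (orange) and adenine forms of the same fragments (grey) in 4 rice comparisons. In shoot the orange and grey curves lie mostly on opposite sides of 0, with medians of -0.54 and 1.02 for cold, and in root they overlap.

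The 3 largest falls under cold, among fragments of at least 10 RPM whose groups did not overlap, were in Val-AAC. The 38 nt Val-AAC fragment with guanine went from 78.4 and 91.3 RPM in control shoot to 20.3 and 18.1 RPM in cold-treated shoot (log2 fold change -2.08 ± 0.18, adjusted p = 2.4e-07), and that with thymine from 73.0 and 73.8 RPM to 12.6 and 20.6 RPM (-2.12 ± 0.35). A 37 nt Val-AAC fragment with thymine fell by 2.23 ± 0.43 on the log2 scale. Under salt a 20 nt fragment shared by Pro-AGG and Pro-TGG fell most, from 54.8 and 64.9 RPM to 2.23 and 15.2 RPM (-3.07 ± 0.48, adjusted p = 0.0001). A 20 nt Glu-TTC fragment with guanine went from 24.9 and 29.2 RPM to 3.35 and 4.15 RPM (-2.56 ± 0.40). A 38 nt Gly-TCC fragment with guanine fell by 2.47 ± 0.54, a call lost without shoot control replicate 2 (-1.78). Among the 8 misread features that rose under salt were 40 nt fragments of Glu-TTC, from 9.97 and 10.3 RPM to 41.3 and 41.5 RPM (1.93 ± 0.33, adjusted p = 0.00024), and of Gly-CCC, from 27.7 and 32.9 RPM to 67.0 and 74.0 RPM (1.20 ± 0.24), both with thymine and ending with CCA. A 37 nt Lys fragment lacking the last A, with 0 and 4.29 RPM in control and 20.1 and 8.30 RPM after salt, rose as well (2.61 ± 0.57), but without shoot control replicate 1, the library with no read, the value was 1.40 and the call was lost.

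Fewer misread features were called in root than in shoot; the difference of the effects is tested in the last paragraph. After cold 40 misread features were lower and 2 higher, 6.41% and 0.321%, where 3.51% and 5.87% of all features were called. After salt 40 were lower and 7 higher, where 5.65% and 4.94% of all were. The medians were -0.35 and -0.25, and those of the adenine forms -0.16 and 0.18. Of the 40 lower after cold 29 lacked the last A. Both counts leaned on single libraries: the cold total was 12 to 19 without a root control or root cold library and 74 and 75 without shoot salt replicate 1 and shoot salt replicate 2, and the salt total was 20 to 24 without a root control or root salt library and 84 and 85 without the same 2 shoot libraries. With 5 instead of 1 added to the RPM the totals were 73 and 101. After cold a 38 nt Val-AAC fragment with thymine went from 33.3 and 28.6 RPM to 7.06 and 9.46 RPM (-1.79 ± 0.35), and a 19 nt Ala-CGC fragment lacking the last A from 22.6 and 26.5 RPM to 5.72 and 10.1 RPM (-1.56 ± 0.46). The Ala-CGC call was lost with 0.5 added to the RPM (-1.62) and without any 1 of the root control, root cold and root salt libraries or panicle replicate 2 (-1.92 to -1.20). The 30 nt Val-AAC fragment with guanine rose from 1.72 and 2.99 RPM to 7.06 and 8.38 RPM (1.40 ± 0.34), a call lost without root control replicate 1 (1.12), root cold replicate 1 (1.51) or root cold replicate 2 (1.29). After salt the 40 nt Asp-GTC fragment with thymine fell from 40.5 and 39.9 RPM to 10.5 and 10.1 RPM (-1.87 ± 0.41, adjusted p = 0.0048). Both 39 nt Lys fragments rose, that with guanine from 16.8 and 16.0 RPM to 46.9 and 43.1 RPM (1.40 ± 0.38, adjusted p = 0.022). The guanine call was lost without any 1 of the root control and root salt libraries (1.34 to 1.46), and the thymine call (1.27 ± 0.35) without root control replicate 2 (0.94), root salt replicate 1 (1.28) or root salt replicate 2 (1.27).

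The stress effect itself was compared between the organs. Cold acted differently on 35 of 624 misread features (5.61%, beside 9.56% of all features) and salt on 91 (14.6%, beside 16.7%). For cold, 29 of the 35 had the lower fold in shoot, all of them ending with CCA, and the 6 with the higher fold in shoot all lacked the last A. Of the 339 adenine forms 58 differed for cold and 75 for salt, with the higher fold in shoot in 58 and 72.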

How the data were processed

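Small RNA libraries from pretreated total RNA were sequenced, 2 per group in 12 groups. The deposited tables list fragments of tRNAs with 1 value per library, which the authors give as log2(1 + RPM), per the file headers. Adapter trimming with cutadapt and the TAIR10 genome are named in the submitters' processing notes; an aligner, its allowance for mismatches and a rice build were not given in those sources. Tables list only fragments above a low mean level. Values were turned back to RPM, and 100% of them came out as whole reads within 0.05 of a read. Arabidopsis libraries held 159832 to 1293518 listed reads and rice libraries 67985 to 434778, so that 1 read was worth 0.651 to 3.85 RPM and 0.120 to 1.12 RPM.

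Misread fragments were found with Python 3.11.15 (pandas 2.3.3, numpy 2.4.6). Their members, the lists beside them and the tests were chosen with earlier results of these data known. limma 3.58.1 in R 4.3.3 was fitted per species on log2(RPM + 1) of every feature averaging 1 RPM or more, rows with identical values in every library joined, with a mean-variance trend and Benjamini-Hochberg adjustment, and called at an adjusted p under 0.05. Fold changes understate those of low fragments. The procedure was tried on simulated counts drawn independently for each library, with changes placed only in features of at least 10 RPM. This does not test it under the shared deviations by replicate number seen in these libraries, nor for lower fragments. Shares of 6 fragments were tested with two-sided exact permutation tests over libraries, adjusted over the 6.

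Fragments named are the 5 most abundant per species, the most abundant of each family and wrong base, and the 3 largest folds in each direction among called fragments of at least 10 RPM whose groups did not overlap; from these the text gives a selection. In Arabidopsis, libraries with the same replicate number deviated together (correlations of 0.102 to 0.237 over 10 pairs of tissues). Whether the numbers pair the libraries is not stated, and the part of depth in these correlations was not tested. Replicate 2 held 1.58 to 1.60 times the listed reads of replicate 1 in every Arabidopsis group. In every rice group it held 1.59 to 1.64 times as many. The labels do not say what a number marks, and the reason for this steady ratio was not tested. Other pseudocounts (0.5 and 5), filters (none and 10 RPM), median scaling, a replicate block and leaving out each library were tried. Gene positions are in TAIR10; 595 of 598 nuclear loci read as the listed tRNA in the RefSeq genome and 598 overlap an annotated tRNA on the same strand.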

Additional observations from a re-analysis of the deposited data

Results flagged for a closer look

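For 4 abundant rice fragments, each lacking the last A, the stress effect differed between shoot and root (limma on all features, difference as shoot minus root on the log2 scale). For the 38 nt Gly-CCC fragment read with thymine the cold effect differed by 0.83 ± 0.19 (SE, adjusted p = 0.00788), with 96.6 and 99.9 RPM in control and 82.8 and 74.99 RPM in cold-treated shoot, against 443 and 403 RPM and 195 and 188 RPM in root. The salt effect differed by 1.65 ± 0.31 (adjusted p = 0.0012) for the 40 nt Glu-CTC fragment read with guanine, which had 575 and 571 RPM in control root and 169.9 and 149 RPM after salt. It differed by 1.68 ± 0.32 (adjusted p = 0.00118) for the 40 nt Glu-CTC fragment read with thymine, and by 0.55 ± 0.17 (adjusted p = 0.0308) for the 38 nt Glu-CTC fragment read with thymine.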

How the results depend on the processing

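With 1 library left out, the number of misread features called ranged from 282 to 492 among the Arabidopsis tissues, 132 to 306 for flower and silique, 438 to 554 among the rice groups, 199 to 341 for root against shoot, 138 to 316 for panicle, 46 to 146 and 12 to 75 for cold in shoot and root, and 108 to 210 and 20 to 85 for salt. With a mean of at least 10 RPM required, which leaves fewer fragments, the counts were 144 among the rice groups, 108 for root, 97 for panicle, 46 for cold and 80 for salt in shoot. With 5 added to the RPM, cold and salt in root gave 73 and 101. The replicate block gave 513 and 300 in Arabidopsis and changed no count by over 1.5 times. Rice libraries with the same replicate number also deviated together (correlations of 0.0524 to 0.163 over 21 pairs of groups). The block left the rice share differences at 0.928, 10.8 and -1.80 points. A replicate block for the Arabidopsis shares, added after seeing the data, left the ranges at 15.7 points for Gly-TCC and 6.80 for Tyr-GTA but ended both calls (adjusted p = 0.05, exact permutation test), and Glu-TTC stayed without a call at 5.91. Single-fragment shares ranged, with 1 library left out, over 15.0 to 16.4 points for Gly-TCC, 4.72 to 8.87 for Tyr-GTA, 3.68 to 8.14 for Glu-TTC, -3.24 to 4.501 for Glu-CTC, 7.67 to 15.9 for Val-AAC and -5.14 to 0.161 for Lys. The whole Glu-TTC family gave 5.43 points and passed with libraries permuted freely, without a block. Root minus shoot turned in sign for Glu-CTC as a log2 ratio (-0.0869) and in control libraries (-13.0), for Val-AAC in control libraries (-9.01) and for the whole Lys family (6.82). Rice members with a complete 3′ end numbered 383. Of 1144 alternatives for 59 values of single fragments 1105 kept direction and call, 39 lost the call and 0 reversed. The cause was not tested.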
